A study of Mus musculus with 11 samples.

Results

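Serpins are a family of protease inhibitors and related proteins, and their transcripts were compared here over the Sertoli valve (SV), the rete testis (RT) and the convoluted seminiferous tubules (ST) of the mouse testis. Members were the probe sets annotated with a single gene symbol that starts with Serpin, with the brightest probe set (highest mean log2 signal) kept for each gene. This gave 40 genes of the 18194 with a probe set of their own: 14 of clade A, 18 of clade B, 2 each of clades F and I, and 1 each of clades C, D, G and H, where the clade is the letter after Serpin. RNA came from 4 SV, 3 RT and 4 ST samples of W/Wv mice aged 7 weeks, each sample being a pool of 20 testes hybridized to 1 Affymetrix mouse genome array. All groups carried the same W/Wv genotype, in which both copies of the receptor gene Kit are mutated and the tubules hold few germ cells. The pieces were cut by hand after trypan blue was injected through the efferent ducts, and SV is the end of the tubule that opens into RT, so that SV pieces may hold RT cells, a limit the methods also name. No wild-type sample was included.

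A serpin presents an exposed reactive loop as bait to a protease, and cleavage of the loop traps both proteins in a covalent complex. Clade A members are mostly secreted inhibitors of serine proteases in blood and tissue fluids, among them hormone carriers, whereas clade B members lack a classical signal peptide and act largely inside cells. A few serpins do not inhibit proteases, such as the collagen chaperone encoded by Serpinh1. In the testis the secreted protein C inhibitor encoded by Serpina5 is required for male fertility in mice.

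The values are MAS5.0 signals on a linear scale, and the median signal per array lay between 65.8 and 110.4. The regions separated by the summed signal of rete testis markers, while other sums overlapped between some regions. The 12 rete testis markers summed to 4825–11040 in SV arrays, 31398–44877 in RT arrays and 849–1275 in ST arrays. The 13 measured Sertoli cell markers summed to 70929–94935 in SV arrays, 36653–49914 in RT arrays and 92136–114688 in ST arrays. The 12 measured efferent duct and epididymis markers summed to 18169–34443 in SV arrays, 26186–33193 in RT arrays and 11811–16556 in ST arrays. For the 12 endothelial markers the sums were 3508–7331, 5795–8813 and 2521–3917. Of 8 mesothelium markers, 3 were called higher in SV and 3 in RT than in ST, beside 2.39% and 12.5% of all genes. Krt19, called in both, was also among the rete testis markers, and Wt1 was also among the Sertoli cell markers. The mesothelium sums were 6135–6795 in SV arrays, 8130–10356 in RT arrays and 6166–7404 in ST arrays. SV replicate 3 had the lowest rete sum and the highest Sertoli sum of the SV arrays. In such pieces of tissue, fewer cells of a type and less RNA per cell cannot be told apart.

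More Serpin genes were called in RT against ST than in SV against ST, as was also so over all genes. A gene was called at an adjusted p under 0.05 with over 2-fold difference, by limma over all probe sets with Benjamini-Hochberg adjustment. In RT against ST, 4 of the 40 Serpin genes were called higher (Serpinb1b, Serpinb6b, Serpinb9 and Serpinh1), beside 12.5% of all genes, and 4 were called lower (Serpina3a, Serpina5, Serpinb2 and Serpini1), beside 7.34% of all genes. In SV against ST, 2 were called higher (Serpina3n and Serpinb6b), beside 2.39% of all genes. None was called lower there, beside 0.0769% of all genes, and 1 was lower by over 2-fold at an unadjusted p under 0.05. In SV against RT, 3 were called higher (Serpina3n, Serpinb2 and Serpini1), beside 4.39% of all genes, and 1 was called lower (Serpinb6b), beside 6.41% of all genes. The counts over the 40 genes lay near these shares of all genes. The median log2 fold change of the 40 genes was 0.08 in SV against ST, −0.05 in RT against ST and 0.03 in SV against RT, against 0.02, 0.08 and −0.04 over all genes.

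Replicates 1 and 2 stood apart from replicates 3 and 4, so the counts were also taken within each set. With replicates 1 and 2 alone, 3 were higher in SV than in ST, 4 were higher and 5 lower in RT than in ST, and 5 were higher in SV than in RT with none lower. With replicates 3 and 4 alone, where the single RT array was assumed to vary like the others, 2 were higher and 2 lower in RT than in ST and no other call was made. The count higher in SV than in RT was 1 without RT replicate 1 and 5 without RT replicate 3. The count lower there was 0 when SV replicate 3, SV replicate 4, RT replicate 1 or RT replicate 2 was left out.

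**Figure D1:**
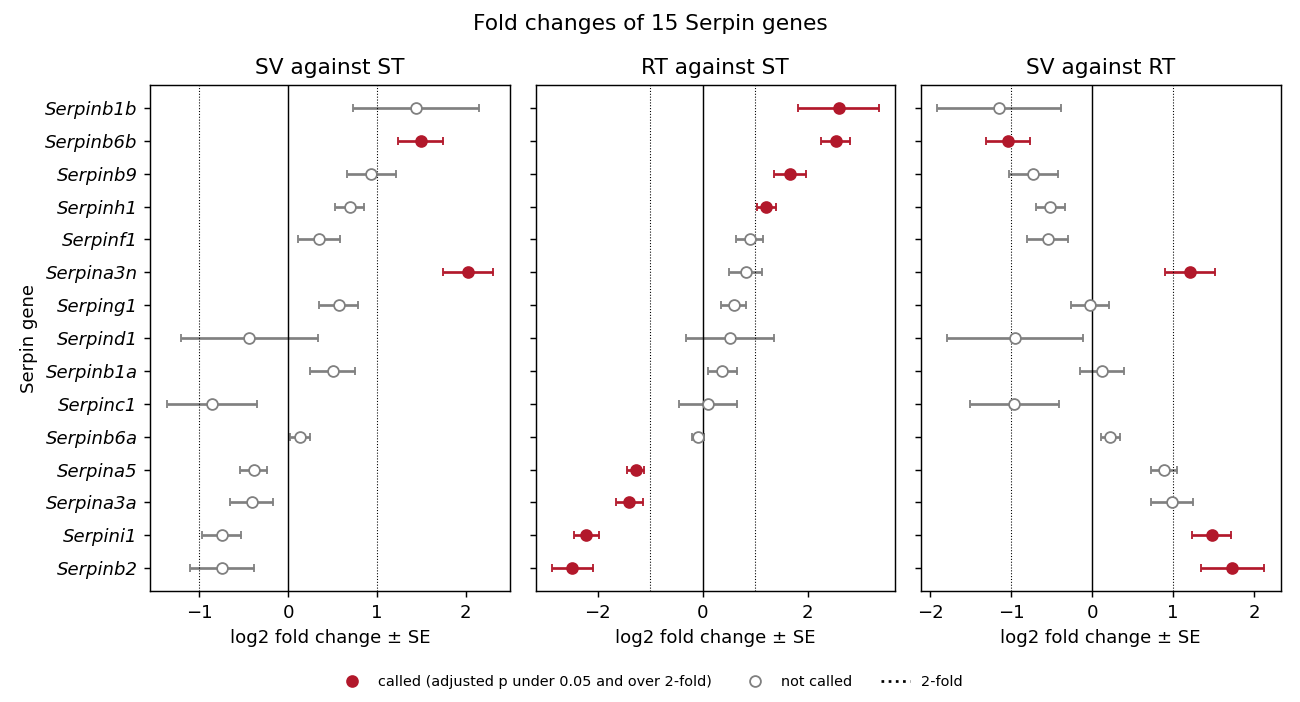
Log2 fold change ± standard error (x axis) of 15 Serpin genes (y axis) in SV against ST, RT against ST and SV against RT, with filled points for called genes and dotted lines at 2-fold. In RT against ST the called genes lie on both sides of 0, with Serpinb1b at 2.59 and Serpinb2 at −2.48, while in SV against ST the called genes are Serpina3n and Serpinb6b, both higher.

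By clade, calls in both directions came from clades A and B, which hold 32 of the 40 genes. Between RT and ST, clade A had 0 genes higher and 2 lower, and clade B had 3 higher and 1 lower, beside 12.5% and 7.34% of all genes. These counts are too small to set a clade apart from all genes. The remaining calls there were the single clade H gene, higher, and 1 of 2 clade I genes, lower. The genes of clades C, D, F and G were not called in any comparison. Between RT and ST the median difference in log2 signal was −0.27 for the 14 clade A genes and −0.09 for the 18 clade B genes. Most members were dim: 27 of the 40 had a mean signal under 79.9, the median of all probe sets, and 13 were above it (3 of clade A, 6 of clade B and 1 each of clades F, G, H and I). Of the 9 genes called in any comparison, Serpinb1b was the dim one.

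Serpina3n was the 1 Serpin gene called higher in SV than in either other region. It encodes a secreted acute-phase inhibitor that blocks granzyme B and leukocyte elastase in mice. Its signal was 2051, 1804, 839 and 2140 in SV replicates 1 to 4, 623, 561 and 969 in RT and 495, 344, 305 and 465 in ST. All SV arrays lay above all ST arrays, and 3 of 4 lay above all RT arrays, with SV replicate 3 below the highest RT array. SV exceeded ST by 2.03 ± 0.29 on the log2 scale (SE, adjusted p = 0.00182) and RT by 1.20 ± 0.31 (adjusted p = 0.0197), while RT exceeded ST by 0.82 ± 0.31, which did not pass the threshold (adjusted p = 0.0705). Of all genes, 28 (0.154%) were called in SV over each of the other regions. The 7 measured Leydig cell markers summed to 36156–74683 in SV, 36528–47690 in RT and 29488–54520 in ST. As for Serpina3n, SV replicate 3 was the lowest of SV and RT replicate 3 the highest of RT in these sums. The macrophage and endothelial sums had the same extremes. The part of these cell types in the Serpina3n signals was not tested. Serpina3n was called higher in SV than in ST without any 1 array, but the call against RT was lost without SV replicate 2 (1.15), SV replicate 4 (1.07), RT replicate 1 (1.12) or RT replicate 2 (1.05). Within replicates 3 and 4 the value against RT was 0.47 (adjusted p = 0.744).

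Because Serpina3n stood apart from its clade, the 250 bases before its RefSeq start are shown (GRCm38.p6, chr12:104406458-104406707, plus strand). The letters of 7 motifs were searched on both strands: the GC box GGGCGG, the TATA box TATAAA, the CCAAT box CCAAT, the STAT site TTCNNNGAA, the GATA site AGATAA, the interferon response element (GAAA and GAAA with 2 bases of any kind between them) and the heat shock element (TTC, GAA and TTC with 2 such bases between each). None of these letters were in this window.
Serpina3n: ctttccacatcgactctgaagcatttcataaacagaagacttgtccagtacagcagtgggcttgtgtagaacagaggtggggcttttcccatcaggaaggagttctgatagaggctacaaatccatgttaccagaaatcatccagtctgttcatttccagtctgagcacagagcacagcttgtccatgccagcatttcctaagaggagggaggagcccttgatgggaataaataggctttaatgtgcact

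Serpinb6b and Serpinb9, which encode intracellular inhibitors of granzymes A and B in mice, had their highest signals in RT. Serpinb6b had 1470, 1340, 616 and 932 in SV, 2599, 2158 and 1712 in RT and 440, 420, 272 and 358 in ST. The 3 regions did not overlap, in the order RT, SV and ST. It was higher in RT than in ST by 2.54 ± 0.27 (adjusted p = 2.14e-05) and in SV than in ST by 1.49 ± 0.25 (adjusted p = 0.00699). In SV against RT it was lower by 1.04 ± 0.27 on the log2 scale (adjusted p = 0.0223), a call lost without SV replicate 3 (−0.80), SV replicate 4 (−0.99), RT replicate 1 (−0.90) or RT replicate 2 (−1.03). With replicates 1 and 2 against 3 and 4 as a block it was −0.94 ± 0.16 (adjusted p = 0.00125), under 2-fold. Of all genes, 376 (2.07%) were called over ST in each of SV and RT. The Serpinb6b signals went with the rete marker sums given above, which were also highest in RT and lowest in ST. Of 12 efferent duct and epididymis, 12 endothelial and 8 mesothelium markers, 2, 2 and 3 were called higher in SV than in ST. In RT against ST these counts were 5, 5 and 3. The shares of all genes were 2.39% and 12.5%. Krt19, which is also a rete marker, was among the mesothelium calls in both comparisons. The endothelial marker Robo4 was called lower in RT than in ST (−2.27). The part of each of these cell types in the result was not tested.

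Serpinb9 had 1048, 939, 404 and 696 in SV, 1250, 1332 and 1044 in RT and 501, 468, 268 and 327 in ST. All RT arrays lay above all ST arrays, whereas SV replicate 3 lay among the ST arrays. Serpinb9 was higher in RT than in ST by 1.67 ± 0.30 (adjusted p = 0.00103). In SV against ST it had 0.94 ± 0.28 (adjusted p = 0.115), and 1.22 (adjusted p = 0.00665) without SV replicate 3, which was then past the threshold. Its second probe set gave 1.63 in RT against ST (adjusted p = 0.00177). The granzyme genes themselves were dim, with mean signals of 13.9, 28.6 and 18.1 for Gzma and 15.6, 21.2 and 18.4 for Gzmb in SV, RT and ST, and neither was called. The 12 mast cell and neutrophil markers summed to 285–479 in SV, 221–389 in RT and 148–258 in ST, and the 13 macrophage markers to 22913–33473, 26334–33494 and 22367–25578.

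Serpinb6b and Serpinb9 are next to each other on chromosome 13, and their promoters are shown because these neighbours were both higher in RT than in ST. The 250 bases before each RefSeq start are given (GRCm38.p6, chr13:32965011-32965260 and chr13:33004291-33004540, both on the plus strand). Capitals mark the GC box GGGCGG at −89 to −84 of Serpinb6b and the interferon response element at −46 to −37 of Serpinb9, which reads TTTCACTTTC on this strand. The GC box letters are in 32.7% of 32851 RefSeq mouse promoter windows of the same length and the interferon response element letters in 2.98%. The longest run of bases shared by both windows was 9 bases.
Serpinb6b: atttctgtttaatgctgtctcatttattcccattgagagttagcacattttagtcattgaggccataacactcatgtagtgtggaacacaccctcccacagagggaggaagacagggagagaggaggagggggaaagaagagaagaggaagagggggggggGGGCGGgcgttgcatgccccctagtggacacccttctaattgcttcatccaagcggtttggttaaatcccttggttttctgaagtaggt
Serpinb9: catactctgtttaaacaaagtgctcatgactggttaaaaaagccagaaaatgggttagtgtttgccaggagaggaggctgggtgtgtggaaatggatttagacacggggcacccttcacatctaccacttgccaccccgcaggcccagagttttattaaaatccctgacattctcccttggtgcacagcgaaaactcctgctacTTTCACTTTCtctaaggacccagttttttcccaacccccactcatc

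Serpinb1b, a dim paralog of the leukocyte elastase inhibitor gene, lies in the same chromosome 13 cluster. Its signal was 64.3, 54.9, 13.2 and 36.3 in SV, 101, 108 and 47.3 in RT and 18.6, 43.8, 4.83 and 7.89 in ST. All RT arrays lay above all ST arrays, with ST replicate 2 close to RT replicate 3. The log2 fold change was 2.59 ± 0.77 (adjusted p = 0.0235) in RT against ST. It was no longer called when RT replicate 1 (2.43) or 2 (2.38) or ST replicate 3 (2.11) or 4 (2.34) was left out, nor with median centring (2.17, adjusted p = 0.0521) or quantile normalization (2.24, adjusted p = 0.0585). Of the 11 measured Serpin genes of chromosome 13, 3 were called higher in RT than in ST, Serpinb1b included, and none lower, beside 12.5% and 7.34% of all genes, and with so few genes nothing is read from this count. Their other measured neighbours in the RefSeq order were not called, among them Serpinb9b at −0.01 and Serpinb1a at 0.38. Probe sets of such similar genes may detect more than 1 of them, which was not tested.

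**Figure D2:**
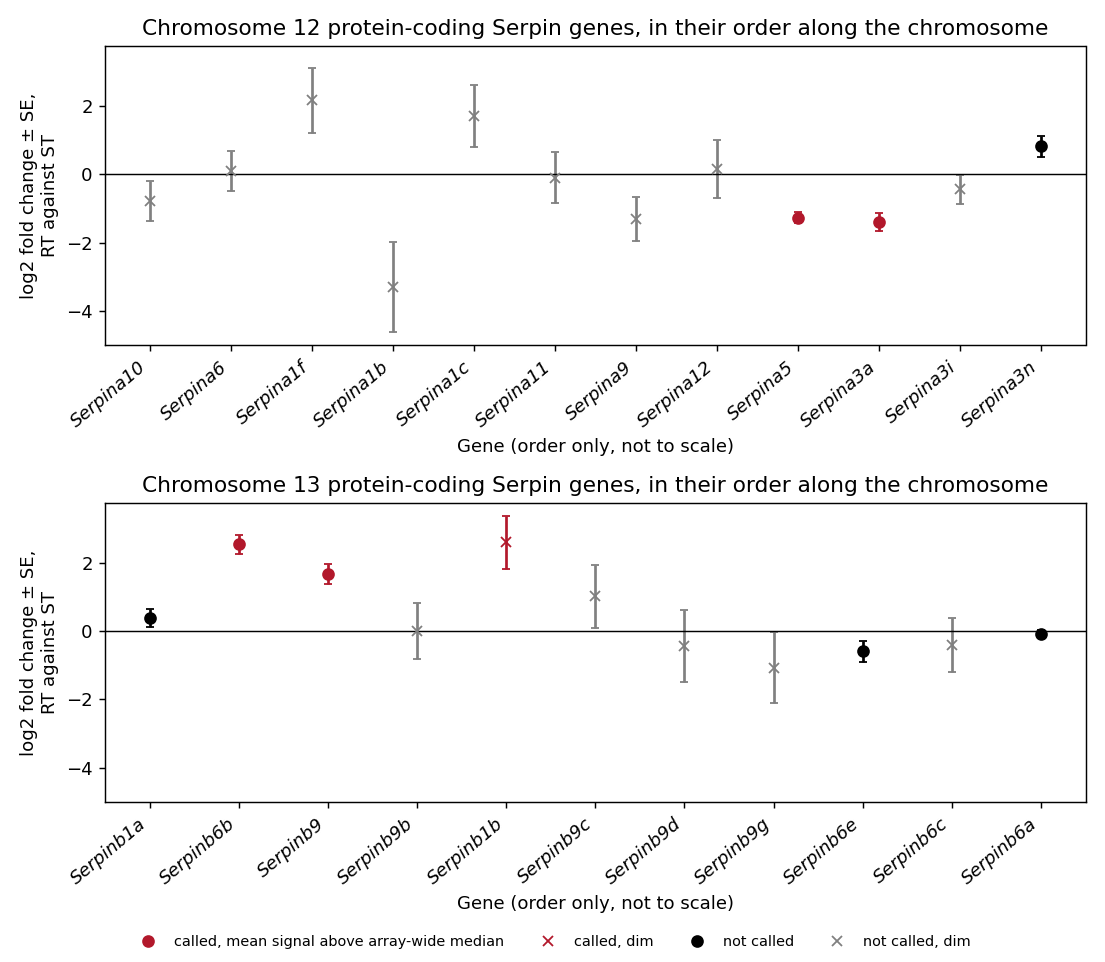
Log2 fold change ± standard error of RT against ST (y axis) for the protein-coding Serpin genes of chromosome 12 and of chromosome 13, in their order along the chromosome and not to scale (x axis), with red for called genes and crosses for dim ones. On chromosome 12 the neighbours Serpina5 and Serpina3a lie at −1.27 and −1.39, and on chromosome 13 the neighbours Serpinb6b and Serpinb9 lie at 2.54 and 1.67.

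Serpina5 and Serpina3a were lower in RT than in ST. Serpina5, which encodes the protein C inhibitor, had 12787, 13270, 14826 and 12110 in SV, 5676, 6946 and 9272 in RT and 20211, 17184, 16026 and 16103 in ST. The 3 regions did not overlap, in the order ST, SV and RT. RT differed from ST by −1.27 ± 0.17 on the log2 scale (adjusted p = 8.55e-05). SV lay 0.89 ± 0.17 above RT (adjusted p = 0.00321), under 2-fold, and its difference from ST was −0.39 ± 0.15 (adjusted p = 0.271). Without RT replicate 3 the value in SV against RT was 1.07 and past the 2-fold threshold.

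Serpina3a had 1557, 1786, 2482 and 1692 in SV, 609, 852 and 1578 in RT and 2446, 2137, 2754 and 2542 in ST. All RT arrays lay below all ST arrays, while RT replicate 3 reached the SV arrays. SV differed from ST by −0.41 ± 0.24 on the log2 scale (adjusted p = 0.524), and RT differed from ST by −1.39 ± 0.26 (adjusted p = 0.00130). SV exceeded RT by 0.98 ± 0.26 (adjusted p = 0.0225), which was just under 2-fold and passed it without SV replicate 1 (1.06), SV replicate 4 (1.02) or RT replicate 3 (1.36). Within replicates 3 and 4 the values in RT against ST were −0.75 (adjusted p = 0.174) for Serpina3a and −0.79 (adjusted p = 0.0995) for Serpina5. Both genes went with the Sertoli marker sums, which were also highest in ST and lowest in RT. RT replicate 3 had the highest Sertoli sum of the RT arrays. The 10 peritubular myoid cell markers also had their lowest sums in RT (10217–13970), with RT replicate 3 highest there. Their sums were 17590–20157 in SV and 17840–26317 in ST. Of these 10, 3 were called lower and 2 higher in RT than in ST, beside 7.34% and 12.5% of all genes. The cell of origin was not tested.

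Serpina5 and Serpina3a are next to each other among 12 measured protein-coding Serpin genes of chromosome 12. The second, dim probe set of Serpina1b, also on that chromosome, passed the threshold in RT against ST (−4.02, adjusted p = 0.00334). On the kept probe sets no other Serpin gene there was called in RT against ST, so the promoters of Serpina5 and Serpina3a are shown. The 250 bases before each RefSeq start are given (GRCm38.p6, chr12:104100863-104101112 and chr12:104112474-104112723, both on the plus strand). Capitals mark 2 overlapping TATA box matches of Serpina3a, TATAAA at −29 to −24 and its reverse complement TTTATA at −31 to −26. The TATA box letters are in 12.4% of promoter windows, and none of the 7 motifs were found in the Serpina5 window. The longest run of bases shared by these windows was 7 bases.
Serpina5: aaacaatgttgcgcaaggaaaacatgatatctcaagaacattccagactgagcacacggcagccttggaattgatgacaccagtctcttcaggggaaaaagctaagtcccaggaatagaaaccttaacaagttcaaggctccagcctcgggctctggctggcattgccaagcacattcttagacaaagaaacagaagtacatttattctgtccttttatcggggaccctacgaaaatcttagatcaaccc
Serpina3a: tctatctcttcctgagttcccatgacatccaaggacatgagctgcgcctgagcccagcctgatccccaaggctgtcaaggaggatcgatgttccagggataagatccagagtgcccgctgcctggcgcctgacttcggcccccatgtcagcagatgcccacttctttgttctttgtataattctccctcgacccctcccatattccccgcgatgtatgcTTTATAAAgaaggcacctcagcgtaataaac

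The called genes with the largest falls in RT encode inhibitors of plasminogen activators. Serpini1 encodes neuroserpin, an inhibitor of tissue plasminogen activator, and had 503, 621, 877 and 751 in SV, 164, 246 and 353 in RT and 1180, 1056, 1128 and 1156 in ST. The 3 regions did not overlap, and ST arrays were within a narrow range. It was lower in RT than in ST by 2.22 ± 0.24 on the log2 scale (adjusted p = 1.94e-05) and higher in SV than in RT by 1.47 ± 0.24 (adjusted p = 0.00130). The difference of SV from ST was −0.75 ± 0.22 (adjusted p = 0.113). A second probe set gave −2.65 (adjusted p = 1.79e-05), 1.64 (adjusted p = 0.00183) and −1.01 (adjusted p = 0.0655) in the same comparisons. The third was dim and not called.

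Serpinb2 encodes plasminogen activator inhibitor type 2 and had 64.5, 125, 131 and 110 in SV, 20.4, 30.1 and 49.97 in RT and 110, 191, 176 and 249 in ST. All RT arrays lay below all SV and all ST arrays. RT differed from ST by −2.48 ± 0.39 on the log2 scale (adjusted p = 3.90e-04) and SV exceeded RT by 1.73 ± 0.39 (adjusted p = 0.00997). The difference of SV from ST was −0.75 ± 0.36 (adjusted p = 0.408). Without RT replicate 1 the value in SV against RT was 1.42 (adjusted p = 0.0602). Over all genes, 705 (3.87%) were called lower in RT than in ST and higher in SV than in RT. Plat, the gene of tissue plasminogen activator, ran the other way, with a signal of 3307 ± 486 in SV, 4483 ± 914 in RT and 1653 ± 93.3 in ST (SD, n = 4, 3 and 4), and was named after its values were seen. SV lay 0.99 ± 0.14 above ST (adjusted p = 0.00227), just under 2-fold, and RT 1.42 ± 0.16 above ST (adjusted p = 2.32e-05). Plau, the urokinase gene, was dim in each region and not called.

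**Figure D3:**
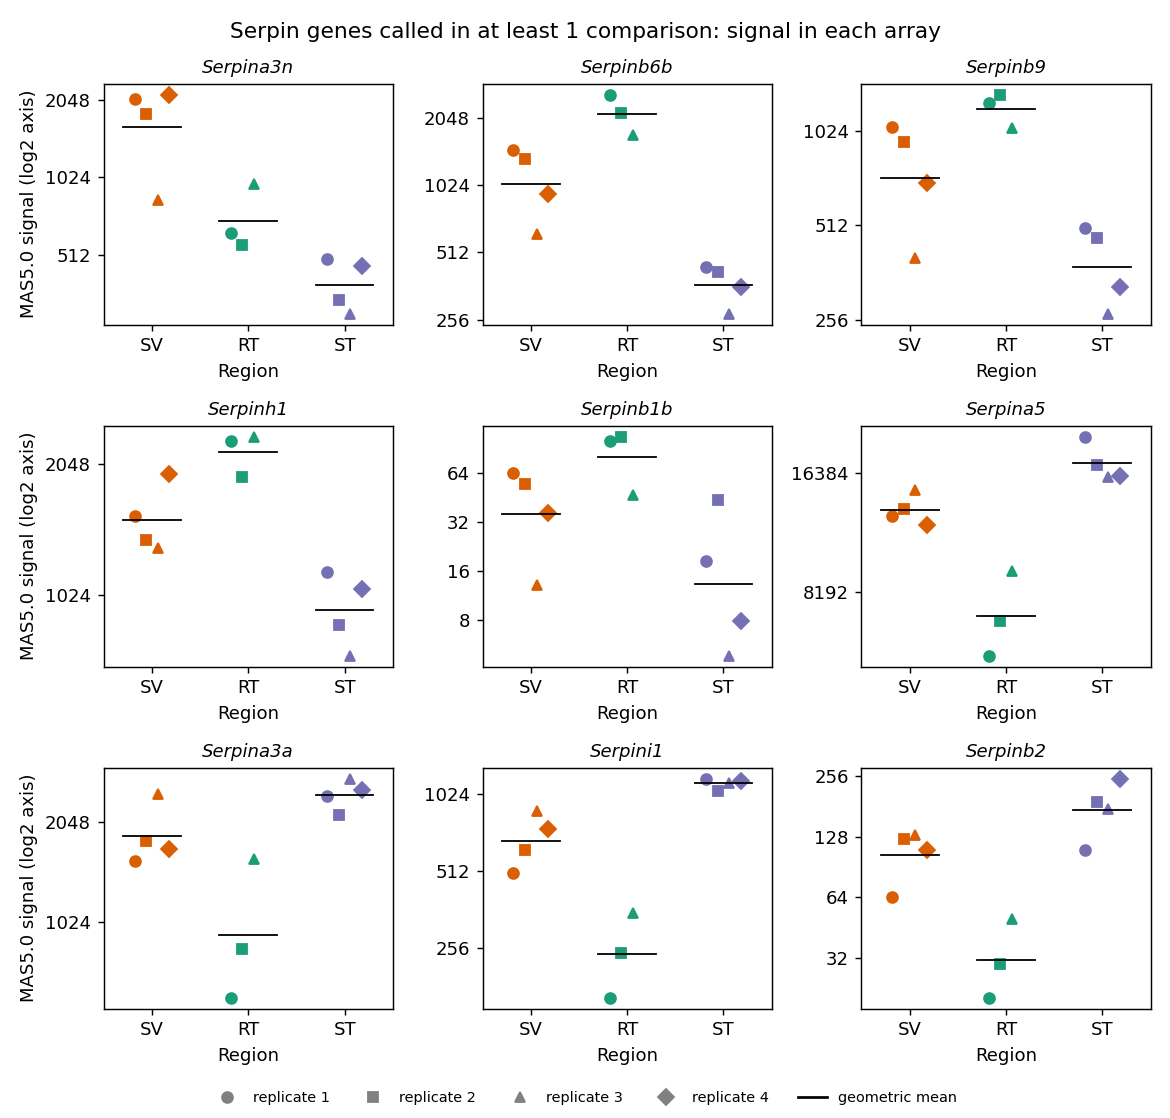
MAS5.0 signal on a log2 axis (y axis) of the 9 Serpin genes called in at least 1 comparison, in each SV, RT and ST array (x axis), with a marker shape per replicate number and a line at the geometric mean. Serpina3n is highest in SV (839–2140), Serpinb6b is highest in RT (1712–2599), and Serpini1 is lowest in RT (164–353).

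Among serpins that do not inhibit proteases, Serpinh1, which encodes the collagen chaperone HSP47, had 1558, 1367, 1313 and 1943 in SV, 2311, 1913 and 2369 in RT and 1156, 873, 742 and 1057 in ST. Both SV and RT arrays lay above all ST arrays. It was higher in RT than in ST by 1.21 ± 0.18 (adjusted p = 2.23e-04), and its value in SV against ST was 0.69 ± 0.16 (adjusted p = 0.0461), under 2-fold. With median centring the RT value was 0.79 (adjusted p = 0.00723), also under 2-fold. On the second Serpinh1 probe set, SV lay 0.49 above ST (adjusted p = 0.441) and RT 1.16 above ST (adjusted p = 0.00664). Serpinf1 encodes PEDF, an inhibitor of vessel growth, and had 3709, 3090, 1684 and 3189 in SV, 4372, 4088 and 3882 in RT and 3113, 2300, 1585 and 2094 in ST. All RT arrays were above all SV and all ST arrays, but the difference of RT from ST was 0.90 ± 0.26 (adjusted p = 0.0193), under 2-fold, and 1.06 (adjusted p = 0.00882) without ST replicate 1. Its second probe set had 0.64 (adjusted p = 0.175).

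Other bright members did not pass the threshold in any comparison. Serping1, which encodes the C1 inhibitor of the complement and contact systems, averaged 11654 ± 3415 in SV, 11472 ± 1252 in RT and 7695 ± 1634 in ST (SD, n = 4, 3 and 4). The log2 difference from ST was 0.57 ± 0.22 for SV (adjusted p = 0.251) and 0.60 ± 0.24 for RT (adjusted p = 0.0851), where all RT arrays lay above all ST arrays. SV replicate 3 (7192) lay far below the other SV arrays (10926.5–14979) and within the ST arrays. The C1 inhibitor acts on the protease encoded by C1ra, for which SV lay 0.75 above ST (adjusted p = 0.0471) and RT 0.49 above ST (adjusted p = 0.0889), both under 2-fold.

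Serpinb6a, an intracellular inhibitor that acts on cathepsin G, was the most even of the bright members, with 7230 ± 615 in SV, 6174 ± 277 in RT and 6582 ± 661 in ST. Its log2 fold changes were 0.14 ± 0.11, −0.09 ± 0.12 and 0.23 ± 0.12 in SV against ST, RT against ST and SV against RT (adjusted p = 0.700, 0.673 and 0.274). Serpinb1a, the leukocyte elastase inhibitor gene, averaged 1634 ± 548 in SV, 1432 ± 131 in RT and 1126 ± 284 in ST, with 0.50 ± 0.25 in SV against ST (adjusted p = 0.423). The blood coagulation inhibitors were dim. Serpinc1, the antithrombin gene, averaged 16.5 ± 6.99 in SV, 31.2 ± 11.3 in RT and 28.9 ± 9.57 in ST, and Serpind1, the heparin cofactor II gene, averaged 7.22 ± 1.496, 20.6 ± 22.7 and 12.7 ± 11.8. Neither was called.

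**Figure D4:**
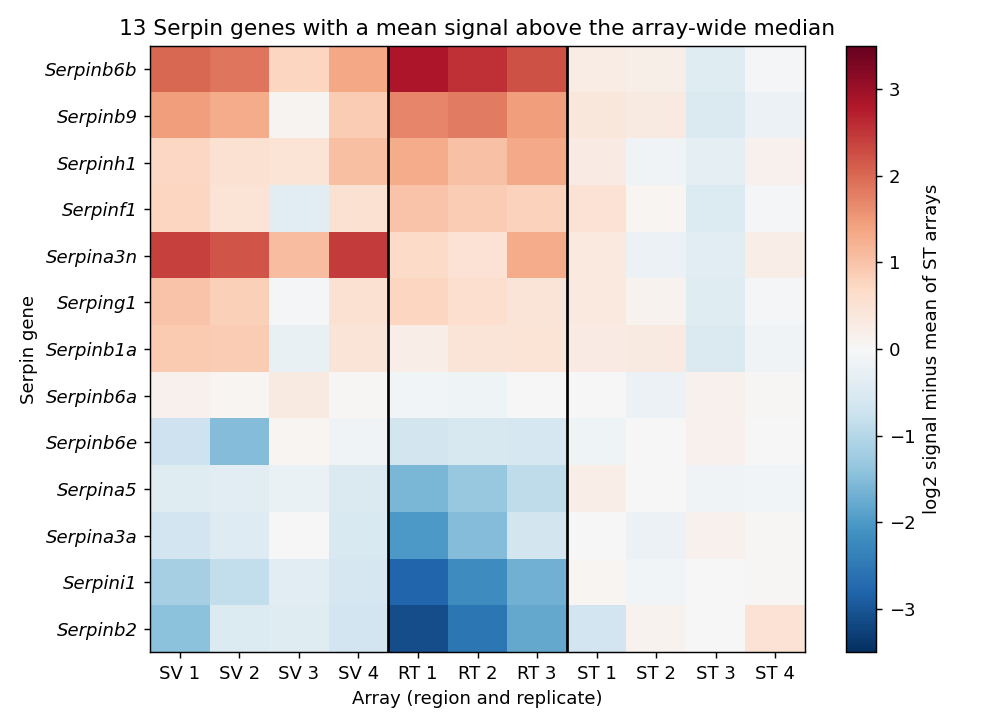
Log2 signal minus the mean log2 signal of the ST arrays (colour) for the 13 Serpin genes with a mean signal above the array-wide median (y axis) in each SV, RT and ST array (x axis). Serpinb6b is highest in the RT arrays, Serpina3n in SV replicates 1, 2 and 4, and Serpini1 and Serpinb2 are lowest in the RT arrays.

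The place of each array within its region was read over these 13 genes. SV replicate 3 was the lowest of the SV arrays for 7 genes, among them Serpina3n, Serpinb6b, Serpinb9 and Serping1, and the highest for 6, among them Serpina5, Serpina3a and Serpini1. It was thus at an end of the SV range for each of the 13. Genes with a higher signal in RT than in ST were low in this array and genes with a lower signal in RT were high in it, for the genes named here. SV replicate 3 also had the lowest Leydig cell marker sum of the SV arrays (36156, with 61163–74683 in the others). Its macrophage (22913), efferent duct and epididymis (18169) and endothelial (3508) sums were also the lowest of the SV arrays. RT replicate 3 was the highest of the RT arrays for 8 genes and the lowest for 4. ST replicate 3 was the lowest of the ST arrays for 8 genes, and its Leydig cell (29488) and endothelial (2521) sums were the lowest of the ST arrays too. The part of these cell types in the array differences was not tested. How often each array is the lowest or highest of its region over all genes was not counted. The counts given here are therefore not read as a trait of Serpin genes.

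On the kept probe sets, the 25 other Serpin genes had signals between 0.692 and 273.6, and limma called none of them in any comparison. Their smallest adjusted p was 0.301 in SV against ST, 0.0853 in RT against ST and 0.0956 in SV against RT. Serpinb6e was the one among them above the array-wide median, with 181 ± 78.3 in SV, 163 ± 4.80 in RT and 248 ± 21.2 in ST. The dim members include the alpha-1-antitrypsin genes, the hormone carriers Serpina6 and Serpina7 and the measured chromosome 1 neighbours of Serpinb2. Without overlap between arrays, 3 of the 40 genes were higher and 3 lower in SV than in ST (7.19% and 3.64% of all genes), and 8 were higher and 7 lower in RT than in ST (24.5% and 18.5%). Against RT, 6 were higher and 3 lower in SV in this way (14.2% and 18.0%). Of all these members, 12 had more than 1 probe set. Among the 25, the second, dim probe set of Serpina1b passed the threshold in RT against ST (−4.02, adjusted p = 0.00334). Its kept probe set had −3.31 (adjusted p = 0.0853). A dim alpha-1-antitrypsin probe set with several symbols, left out of the members, went the other way (2.55, adjusted p = 0.0399).

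Serpins act on proteases, so a list of 50 protease genes that are targets of serpins or of the same kind was read, of which 48 were measured. RT had 7 called higher and 1 lower than ST, beside 12.5% and 7.34% of all genes, and the median log2 fold change was 0.43, against 0.08 over all genes. The membrane protease genes Prss8 (prostasin), with 6.18 ± 0.88 (adjusted p = 1.84e-04), and Hpn (hepsin), with 3.74 ± 0.85 (adjusted p = 0.00503), were higher, from ST signals that were dim (2.07–40.7 for Prss8 and 6.84–33.8 for Hpn), so that the size of these differences is uncertain. Proc, the protein C gene, a target of the Serpina5 protein, was also higher, with 17.0 ± 4.35 in SV, 114 ± 44.9 in RT and a dim 10.6 ± 8.74 in ST and a log2 fold change of 3.62 ± 0.62 (adjusted p = 6.71e-04). Prss3, a trypsin gene, was lower at −3.74 (adjusted p = 0.0243), from dim signals in each region. In SV against ST, 1 was higher and 0 lower, beside 2.39% and 0.0769% of all genes: Prss23, at 1.34 ± 0.27 (adjusted p = 0.0205). In SV against RT, 1 was higher and 5 were lower, beside 4.39% and 6.41% of all genes, among them Hpn (−3.29), Prss8 (−3.09), Proc (−2.68) and St14, the matriptase gene (−2.52).

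Receptors and cofactors of serpins came next, with 25 of 27 listed genes measured. RT had 5 higher and 2 lower than ST, beside 12.5% and 7.34% of all genes, with a median of 0.54 against 0.08 over all genes. Vldlr, a receptor that takes up complexes of serpins with their proteases, had 365 ± 99.1 in SV, 832 ± 168 in RT and 67.4 ± 10.2 in ST, so that SV lay 2.41 ± 0.22 above ST (adjusted p = 7.12e-05) and RT 3.62 ± 0.24 above ST (adjusted p = 6.57e-07). Lrp2, the megalin gene, was higher in RT than in ST by 4.26 ± 0.74 (adjusted p = 7.51e-04), from dim ST signals (7.93–36.4). Lrp8, a related receptor gene, was lower in RT by 3.03 ± 0.26 on the log2 scale (adjusted p = 4.03e-06) and did not differ past the threshold in SV against ST. Plxdc1, which encodes a receptor for PEDF, lay above ST by 1.21 ± 0.22 (adjusted p = 0.0100) for the SV arrays and by 2.96 ± 0.24 (adjusted p = 2.42e-06) for the RT arrays. In SV against ST the list had 2 higher and 0 lower, beside 2.39% and 0.0769% of all genes. Against RT it had 1 higher (Lrp8, 2.62) and 3 lower (Lrp2, Vldlr and Plxdc1) in SV, beside 4.39% and 6.41%.

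For the collagen genes and collagen-processing enzymes that go with HSP47, 24 of 27 were measured. RT had 5 higher and none lower than ST, beside 12.5% and 7.34% of all genes, with a median of 0.09 against 0.08 over all genes. P3h2, a prolyl hydroxylase gene with low ST signals (19.7–89.4), had 3.03 ± 0.44. Bmp1, a procollagen protease gene, had 1.85 ± 0.31, the collagen cross-linking oxidase gene Lox had 1.77 ± 0.32, and Col1a1 had 1.66 ± 0.18. In SV against ST limma called none of this list, beside 2.39% higher and 0.0769% lower of all genes. Against RT, 1 was higher in SV, the lysyl hydroxylase gene Plod2 (1.05 ± 0.17), and 3 were lower, beside 4.39% and 6.41% of all genes. With median centring, 4 of this list were lower in RT than in ST.

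Protease inhibitors outside the serpin family had 38 of 41 listed genes measured. In SV against ST 4 were higher and 1 lower, beside 2.39% and 0.0769% of all genes, with a median of 0.05 against 0.02 over all genes. A2m, which encodes the plasma protease trap alpha-2-macroglobulin, had 315 ± 56.8 in SV, 146 ± 66.6 in RT and 81.1 ± 18.9 in ST, so that SV lay 1.97 ± 0.30 above ST (adjusted p = 0.00281) and 1.20 ± 0.32 above RT (adjusted p = 0.0244). Wfdc18, a whey acidic protein domain gene, had 5806 ± 749 in SV, 1517 ± 562 in RT and 1425 ± 140 in ST, and SV lay 2.02 ± 0.18 above ST (adjusted p = 7.12e-05) and 1.99 ± 0.20 above RT (adjusted p = 1.59e-04). Both were thus called higher in SV than in either other region, as Serpina3n was. RT had 8 higher and 4 lower than ST, beside 12.5% and 7.34% of all genes. Wfdc2, a whey acidic protein gene of duct epithelia, was higher by 6.35 ± 0.37, Itih4 by 3.99 ± 0.60 and Wfdc15b by 2.06 ± 0.69, all from dim ST signals (means of 49.8, 22.0 and 34.4), while the cystatin gene Cst9 was lower by 2.60 ± 0.37 on the log2 scale. Against RT, 6 were higher in SV, among them Cst9 (2.04), and 2 were lower, Wfdc2 (−2.74) and Spint1 (−1.76), beside 4.39% and 6.41% of all genes.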

How the data were processed

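The authors summarized each of 11 arrays by MAS5.0, per their methods, and deposited the intensity values as linear signals of 45101 probe sets, scaled so that the mean without the extreme values was 500.0 in each array. Gene names came from the array annotation, in which 34958 probe sets carry 1 symbol. Unfiltered log2 signals, with nothing added, were fitted for all arrays together by limma 3.58.1 (lmFit, eBayes with trend) in R 4.3.3, with region as the only term, and p-values were adjusted over all probe sets by Benjamini-Hochberg. Calls needed an adjusted p under 0.05 and over 2-fold. Gene counts use 1 probe set per gene. The number of arrays limits the precision.

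Genes named are every Serpin gene called in at least 1 comparison, the brightest of each clade, those with a mean signal over 500 in a region, and up to 4 called members of each gene list per comparison with the largest change. Others, such as Plat, Plau, Gzma, Gzmb, C1ra, C1s1, Masp1, Masp2, Serpina1b, Serpinb6e and Serpinb9b, were named after their values were seen. Members and lists were chosen with earlier results of these data known. The labels number the arrays of each region as biological replicates. They do not say whether pieces of equal number came from the same testes. The main fit did not treat equal numbers as pairs, so any such pairing was left out of it. Promoter windows came from a RefSeq table of GRCm38.p6, and all 40 genes matched the RefSeq gene table; 29 other Serpin genes of RefSeq were not analysed here, nor were protein sequences, so that a planned description of the reactive loops was not made. Alternatives were median centring, quantile normalization, a floor of 32, log2(signal + 32), no dim probe sets, a fit of the regions compared alone, the methods' t-test, eBayes without trend, the replicate number as a block, replicates 1 and 2 as 1 block and 3 and 4 as another, each such set alone, a mean over the probe sets of each gene, no limit on the fold, and each array left out in turn. Plots were made in matplotlib 3.10.9 with Python 3.11.15.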

Additional observations from a re-analysis of the deposited data

Results flagged for a closer look

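Serpind1, the heparin cofactor II gene, had a single array far from the others in each of SV and ST. In SV, replicate 1 had a signal of 4.99, against 7.83, 7.86 and 8.20 in the other arrays, and this gap was 0.886 of the range. In ST, replicate 3 had a signal of 30.1, against 4.21, 7.86 and 8.43, a gap of 0.837 of the range. Both exceed the Dixon limit of 0.829 for 4 samples. These were 2 of 30 groups tested (SV and ST for each of 15 genes), where chance gives 5%, and all these signals are dim.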

How the results depend on the processing

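For the 15 Serpin genes in 3 comparisons, 1161 values under other settings were compared with the 45 main ones. Of these, 1103 kept their side of the threshold, 42 fell under it and 16 came to pass it. Among values called in either setting, 0 reversed. Where neither value was called, direction was not compared, and some changed sign. Serpind1 in SV against ST, for example, ranged from −0.83 to 0.12 as single arrays were left out. The causes of the changes were not tested. Of the 2 genes higher in SV than in ST, 1 remained without the eBayes trend (Serpinb6b then had adjusted p = 0.0521) and 0 with the adjusted methods' t-test or with replicates 3 and 4 alone. Of the 4 higher in RT than in ST, 2 were left with median centring and 2 with replicates 3 and 4 alone, where 2 were also lower. The 3 higher in SV than in RT became 5 with median centring, replicates 1 and 2 alone or no fold threshold, and 0 with replicates 3 and 4 alone. The adjusted t-test gave 1, Serpini2, and kept 0 of these 3. The 1 lower in SV than in RT became 0 with median centring, a floor of 32, the adjusted t-test, eBayes without trend, the block of replicates 1 and 2 against 3 and 4, or either set alone. Leaving out each array in turn gave 2–3 higher and 0 lower in SV against ST, 3–5 higher and 4–5 lower in RT against ST, and 1–5 higher and 0–1 lower in SV against RT.

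Median centring moved the median of all genes to −0.35 in RT against ST, from 0.08. It gave 4 proteases lower in RT than in ST (2 with quantile normalization) and 2 higher in SV than in RT. It gave 3 cofactors higher in RT than in ST and 2 higher in SV than in RT. For the collagen list it gave 4 lower in RT than in ST and 2 higher and 1 lower in SV than in RT, and quantile normalization gave 1 higher in SV than in ST. Of the other inhibitors, 5 were higher in RT than in ST.

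With the replicate number as a block, 2 genes were higher in SV than in ST with 0 lower, 4 were higher and 5 lower in RT than in ST, and 3 were higher and 1 lower in SV than in RT. Arrays of the same number in different regions correlated at 0.0692–0.190 after the region means were removed (10 pairs), other numbers of the same set at 0.0698–0.178 and other sets at −0.179 to −0.0761, and 10 of 11 arrays correlated best with an array of their own number. Dim signals limit what can be seen for 27 of the 40 genes.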
